A study of Sus scrofa with 80 samples.

Results

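DGKA and RASGRP1 encode proteins that remove and sense diacylglycerol, a lipid messenger made below the T cell receptor. The members were taken as every probe set of a porcine Affymetrix array whose only gene symbol in the platform annotation was DGKA or RASGRP1. That gave 2 of the 6765 genes with a probe set of their own symbol, and each was read by 1 probe set. DGKA is NCBI Gene 397097 and RASGRP1 is NCBI Gene 100522721. The files name no genome build, so positions were not used here.

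When a T cell receptor is engaged, phospholipase C gamma 1 (PLCG1) splits a membrane phospholipid into inositol trisphosphate, which releases calcium, and diacylglycerol, which stays in the membrane. RASGRP1 binds diacylglycerol there and loads Ras with GTP, which starts the ERK kinase cascade, while protein kinase C enzymes carry the same signal towards NF-kappaB. Diacylglycerol kinases end the signal by converting diacylglycerol to phosphatidic acid. In mouse and human T cells, DGKA is abundant at rest and dampens signalling through this route, and its excess is linked to the unresponsive state called anergy.

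Expression was measured in blood drawn from weaned pigs aged 35 days. The study paired immune and growth traits, gave each pig a self-product value for each trait pair, and took 5 pigs from each end of that distribution as the low and the high group. The traits were CD4+ and CD8+ by flow cytometry, IFN-alpha and IL-10 by immunological kits, and W35, the body weight at day 35. Weight was paired with each other trait (IL-10--W35, CD8+--W35, CD4+--W35 and IFN-alpha--W35) and each T cell trait with each cytokine (CD8+--IL-10, CD4+--IFN-alpha, CD8+--IFN-alpha and CD4+--IL-10), which made 8 pairs with 5 low and 5 high arrays each. All groups were pigs of the same age, and the labels separate them only by the trait values by which they were picked. The labels used here do not say how the self-product is calculated, so high and low name the ends of a measure whose relation to either trait is not given, and they give neither breed nor sex.

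The 80 arrays came from 29 distinct animals, since the study entered the same pig's array in several pairs and columns correlating above 0.99 were counted once. In the data 21 animals served in at least 2 pairs, 1 animal in as many as 7, and 13 animals carried both labels. Any given pair of comparisons shared at least 1 animal, so the 8 comparisons are set side by side and are not independent of each other. A hybridisation control split the arrays into a lower class of 26 arrays from 11 animals and a higher class of 54 arrays from 18 animals. T cell markers are given for orientation. CD3D, CD3E and CD3G, chains of the T cell receptor complex, had lowest log2 values over the animals of 8.02, 7.21 and 8.68, where the medians of whole arrays as deposited lay between 5.18 and 5.81. Markers of other blood cells were present too, among them PPBP of platelets (8.41 to 12.13), S100A8 of neutrophils (6.57 to 11.02) and CD14 of monocytes (6.12 to 10.71), so these are mixed cells and not purified T cells.

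DGKA was higher in the high than in the low group in 6 of the 8 pairs and lower in CD4+--W35 and CD8+--W35, but in none of them did the difference pass the adjusted threshold. The largest difference was in CD4+--IFN-alpha, at 0.75 on the log2 scale. Over all probe sets, the share higher in the high group was 56.4% in CD4+--W35, 50.4% in CD8+--W35, 47.6% in IFN-alpha--W35, 49.3% in IL-10--W35 and in CD8+--IFN-alpha, 47.3% in CD4+--IFN-alpha, 57.8% in CD4+--IL-10 and 46.1% in CD8+--IL-10. RASGRP1 was higher in 4 pairs and lower in 4, with its largest difference, 0.62, in CD8+--IFN-alpha. Differences were tested per pair with limma, adjusted by Benjamini-Hochberg over 23999 probe sets, and called at an adjusted p under 0.05. Neither member was called in any pair, and the share of all probe sets called was 0% in each of the 8 pairs. The smallest adjusted p over the 8 pairs was 0.672 for DGKA and 0.616 for RASGRP1, both in CD4+--W35. The groups of both members overlapped in all 8 pairs; over all probe sets, the share without overlap was 1.64% in CD4+--W35, 1.12% in CD4+--IL-10, 0.638% in IFN-alpha--W35, 0.533% in IL-10--W35, 0.504% in CD4+--IFN-alpha, 0.408% in CD8+--W35, 0.296% in CD8+--IL-10 and 0.283% in CD8+--IFN-alpha. Beside limma, each of the 16 differences was tested alone with a two-sided exact permutation test over arrays, whose p is not adjusted. The exact permutation p was 0.0476 for DGKA in CD4+--IFN-alpha and 0.0159 for RASGRP1 in CD8+--IFN-alpha, and between 0.238 and 0.746 for the 14 other differences.

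**Figure D1:**
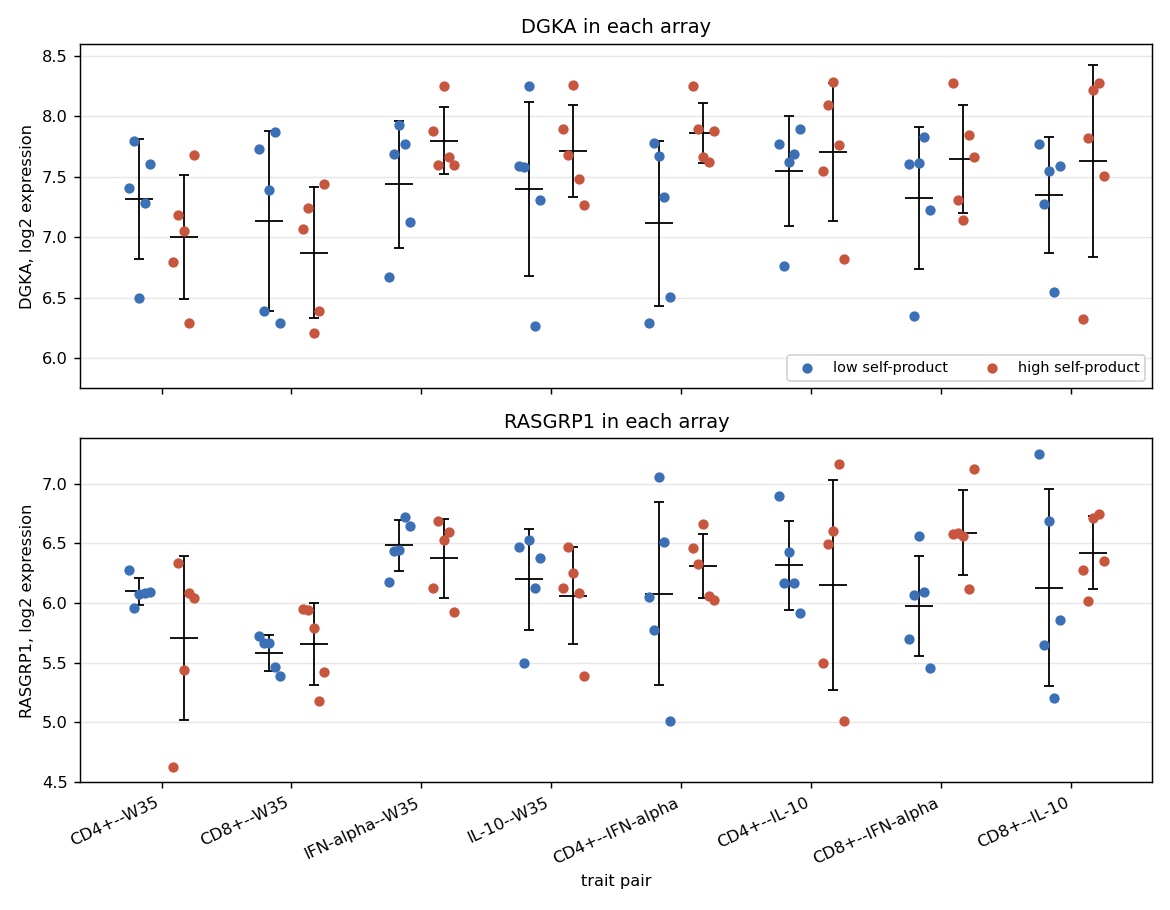
Log2 expression of DGKA (top) and RASGRP1 (bottom) in each of the 80 arrays by trait pair, as deposited. Points are arrays, horizontal bars the group mean and vertical bars 1 SD (n = 5). Low and high groups overlap in every pair, and the animal lowest in DGKA gives a point between 6.21 and 6.67 in 7 of them.

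DGKA, the kinase that removes diacylglycerol, differed most between the groups of CD4+--IFN-alpha. Its log2 values in the 5 low arrays were 6.29, 7.78, 7.67, 7.33 and 6.50. In the 5 high arrays they were 8.25, 7.90, 7.66, 7.62 and 7.88. Of the high arrays, 3 lay above every low array and the other 2 lay just under the 2 highest low arrays. The mean was 7.11 ± 0.682 (SD, n = 5) in the low and 7.86 ± 0.250 (SD, n = 5) in the high group, a difference of 0.75 (SE 0.29, 95% interval 0.11 to 1.39). The adjusted p from limma was 0.971. With 1 array left out the exact permutation p ran from 0.0238 to 0.119, and in 8 of the 10 such sets it was above 0.05. In this pair 3.87% of all probe sets reached an unadjusted limma p under 0.05, as DGKA did. Without the first low array, which belongs to an animal low in DGKA in every pair it entered, the difference was 0.54 (exact permutation p = 0.0714), and without the fifth low or the first high array 0.60 and 0.65, all 3 ending the unadjusted limma p under 0.05. Within the higher hybridisation control class alone it was 0.83 (limma, SE 0.32). The mean of CD3D, CD3E and CD3G as a covariate left a difference of 0.62 (limma, SE 0.26), and erythroid and neutrophil list means as covariates left 0.57 (limma, SE 0.16, adjusted p = 0.703).

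The other pairs that set IFN-alpha or IL-10 against a trait had DGKA differences of one sign. In IFN-alpha--W35 the low arrays read 6.67, 7.69, 7.93, 7.78 and 7.12, and the high arrays 7.88, 7.60, 8.26, 7.67 and 7.60. The high group was the tighter one, and 1 of its arrays exceeded every low array. The difference was 0.36 (SE 0.24, 95% interval -0.16 to 0.89), without the lowest low array it was 0.17, and with the CD3 mean as a covariate 0.56 (limma, SE 0.22). In IL-10--W35 the low arrays read 7.59, 7.58, 8.25, 6.27 and 7.31, and the high arrays 7.89, 7.68, 8.26, 7.48 and 7.26. The ranges nearly coincided at the top, and a single low array, 6.27, lay well under the rest. The difference was 0.32 (SE 0.32, 95% interval -0.39 to 1.02), and without that array 0.03.

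In CD8+--IFN-alpha DGKA read 7.61, 6.35, 7.61, 7.83 and 7.23 in the low arrays and 8.28, 7.31, 7.14, 7.84 and 7.66 in the high arrays. Again 1 low array lay far under the others. The difference was 0.32 (SE 0.29, 95% interval -0.32 to 0.97), and without that array 0.08. In CD8+--IL-10 the low arrays read 7.77, 7.28, 7.55, 6.55 and 7.59, and the high arrays 6.32, 7.82, 8.22, 8.28 and 7.51. Here the lowest array of all was a high one, the same animal that was low in the pairs above, and 3 high arrays lay above every low array. The difference was 0.28 (SE 0.37, 95% interval -0.52 to 1.09) with that animal and 0.61 without it (exact permutation p = 0.0714, limma adjusted p = 0.9904). Without the lowest low array it was 0.08, and in the higher hybridisation control class alone 0.03. In CD4+--IL-10 the low arrays read 7.77, 6.76, 7.62, 7.69 and 7.90, and the high arrays 7.55, 8.09, 8.29, 7.76 and 6.82. Each group held 1 array under 7, and the difference was 0.15 (SE 0.29, 95% interval -0.49 to 0.80).

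DGKA was lower in the high group of the pairs that joined a T cell trait with weight. In CD4+--W35 the low arrays read 7.40, 7.80, 6.49, 7.28 and 7.61, and the high arrays 6.79, 7.18, 7.05, 6.29 and 7.68. The difference was -0.32 (SE 0.29, 95% interval -0.95 to 0.31), and the lowest array again belonged to the recurring animal, here in the high group. In CD8+--W35 the low arrays read 7.73, 6.39, 7.39, 7.87 and 6.29, and the high arrays 7.07, 7.24, 6.21, 6.39 and 7.44. Both groups of this pair held 2 arrays under 6.5, and the difference was -0.26 (SE 0.36, 95% interval -1.06 to 0.53). Within the higher hybridisation control class alone, which holds 2 low and 3 high arrays of the pair, it was -1.12 (limma, SE 0.41). These 2 pairs shared 5 animals, all under the same label. Without the recurring animal the differences were -0.14 in CD4+--W35 and -0.10 in CD8+--W35. The direction did not hold under every covariate. In CD4+--W35 the difference was -0.05 with the CD3 mean, -0.02 with the actin 3′ minus 5′ difference and 0.06 with erythroid and neutrophil list means, and in CD8+--W35 -0.13, 0.03 and 0.06, in the same order.

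**Figure D2:**
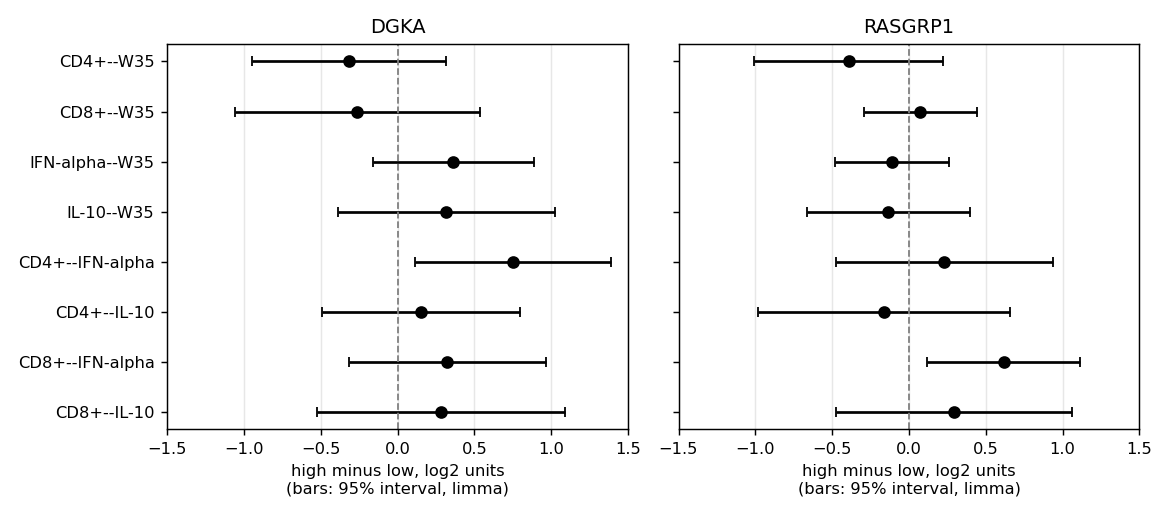
Difference of high minus low, in log2 units, for DGKA (left) and RASGRP1 (right) in the 8 trait pairs. Points are limma estimates from 5 low and 5 high arrays and bars 95% intervals, unadjusted. The interval lies above 0 for DGKA in CD4+--IFN-alpha and for RASGRP1 in CD8+--IFN-alpha, and spans 0 elsewhere.

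RASGRP1, the exchange factor that diacylglycerol brings to Ras, differed most in CD8+--IFN-alpha. Its log2 values in the low arrays were 5.70, 6.06, 6.56, 6.09 and 5.46, and in the high arrays 6.57, 6.58, 6.56, 6.12 and 7.12. Of the high arrays, 4 lay above every low array, 3 of them by a narrow margin over the highest low array. The mean was 5.97 ± 0.418 (SD, n = 5) in the low and 6.59 ± 0.355 (SD, n = 5) in the high group, a difference of 0.62 (SE 0.23, 95% interval 0.12 to 1.12). The adjusted p from limma was 0.999987, and with 1 array left out the exact permutation p ran from 0.0159 to 0.0476. In this pair 1.98% of all probe sets reached an unadjusted limma p under 0.05, as RASGRP1 did. The highest high array came from the animal highest in RASGRP1 of all 29. Without it the difference was 0.48 (exact permutation p = 0.0397), and without the fifth low array 0.49, each ending the unadjusted limma p under 0.05. With arrays weighted by their quality the difference was 0.24 (limma, SE 0.22), with the CD3 mean as a covariate 0.40 (limma, SE 0.28), and in the higher hybridisation control class alone 0.50 (limma, SE 0.24), none of which reached an unadjusted p under 0.05. With erythroid and neutrophil list means as covariates it was 0.69 (limma, SE 0.26) and with the actin 3′ minus 5′ difference 0.65 (limma, SE 0.25), both at an unadjusted p under 0.05.

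The pairs that joined CD4+ or CD8+ with a cytokine had wide RASGRP1 groups. In CD4+--IFN-alpha the low arrays read 6.05, 5.77, 7.05, 6.51 and 5.01, and the high arrays 6.46, 6.33, 6.66, 6.06 and 6.02. All high arrays lay inside the low range, and the difference was 0.23 (SE 0.32, 95% interval -0.48 to 0.94). In CD8+--IL-10 the low arrays read 7.25, 5.65, 6.68, 5.20 and 5.86, and the high arrays 6.28, 6.02, 6.71, 6.74 and 6.35. The high arrays again sat inside the low range, with a difference of 0.29 (SE 0.35, 95% interval -0.47 to 1.06). In CD4+--IL-10 the low arrays read 6.90, 6.17, 6.43, 6.16 and 5.91, and the high arrays 5.49, 6.49, 6.60, 7.16 and 5.01. Here the high group held both the lowest and the highest array, and the difference was -0.16 (SE 0.37, 95% interval -0.98 to 0.66). The extremes of these 3 pairs were the same 2 animals. Without the animal that read 5.01 to 5.20 the differences were -0.04 in CD4+--IFN-alpha, 0.12 in CD4+--IL-10 and 0.06 in CD8+--IL-10. Without the one that read 7.05 to 7.25 they were 0.47, -0.42 and 0.57.

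In the pairs with W35 the RASGRP1 differences lay between -0.39 and 0.07. In CD4+--W35 the low arrays read 6.27, 5.96, 6.08, 6.09 and 6.09, the narrowest group of all at an SD of 0.114, and the high arrays 4.63, 6.33, 5.44, 6.08 and 6.04. The difference was -0.39 (SE 0.28, 95% interval -1.01 to 0.22) and rested in part on the 4.63 array, without which it was -0.12. With the CD3 mean as a covariate it was -0.0064 (limma, SE 0.26). In CD8+--W35 the low arrays read 5.72, 5.67, 5.67, 5.46 and 5.39, and the high arrays 5.95, 5.94, 5.79, 5.18 and 5.42. Of the high arrays, 3 lay above the low range and 1 under it, with a difference of 0.07 (SE 0.17, 95% interval -0.29 to 0.44). In IFN-alpha--W35 the low arrays read 6.17, 6.44, 6.45, 6.72 and 6.64, and the high arrays 6.13, 6.69, 6.53, 6.59 and 5.92. In IL-10--W35 the low arrays read 6.47, 5.49, 6.53, 6.13 and 6.38, and the high arrays 6.12, 6.47, 6.25, 6.08 and 5.38. The differences there were -0.11 (SE 0.17, 95% interval -0.48 to 0.26) and -0.14 (SE 0.24, 95% interval -0.67 to 0.39).

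Ordered by group mean over the 16 groups, DGKA ran from 6.87 ± 0.542 (SD, n = 5) in CD8+--W35 high to 7.86 in CD4+--IFN-alpha high. RASGRP1 ran from 5.58 ± 0.147 (SD, n = 5) in CD8+--W35 low to 6.59 in CD8+--IFN-alpha high. Each pair was normalized as a set of its own, so this order mixes expression with the scale of the pair. None of the 15 steps between neighbouring groups exceeded the smaller of their SDs, for either gene, the widest step being 0.183 for DGKA and 0.269 for RASGRP1.

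Between animals both genes varied several times more than between arrays of 1 animal. The latter spread was bound to be small, since columns correlating above 0.99 were counted as 1 animal. With all 80 arrays brought to one scale by quantile normalization and each animal's arrays averaged, DGKA had a mean of 7.44 ± 0.459 (SD, n = 29 animals) and a range of 6.42 to 8.14 around a median of 7.57. The SD between arrays of 1 animal, which are normalizations of the same hybridisation, was 0.106. RASGRP1 had a mean of 6.08 ± 0.556 (SD, n = 29 animals) and a range of 4.44 to 7.04 around a median of 6.14, with a within-animal SD of 0.106 as well. Among all genes, the between-animal SD of DGKA stood at the 71.1st percentile and that of RASGRP1 at the 83.5th.

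The animal lowest in DGKA, at 6.42, supplied 7 arrays, 3 labelled high and 4 low, and read between 6.21 and 6.67 as deposited in each of them. Its RASGRP1, at 6.14, was at the median. It was followed by animals at 6.61, 6.63, 6.73 and 6.76, and a gap of 0.382 separated these 5 from the next animal at 7.14. These 5 animals supplied 15 arrays, 5 high and 10 low, and 3 of the 5 fell in the lower hybridisation control class. At the other end stood animals at 8.14, 8.11 and 8.08. The first of these supplied 5 arrays, all labelled high, and without it the DGKA difference was 0.65 in CD4+--IFN-alpha, 0.25 in IFN-alpha--W35, 0.18 in IL-10--W35, 0.01 in CD4+--IL-10 and 0.14 in CD8+--IL-10.

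RASGRP1 lay nearer the middle of the array, with a mean over animals 0.484 above the array median, against 1.84 for DGKA. Its lowest animals lay under that median, and whether such values exceed background was not tested. The 2 lowest, at 4.44 and 4.84, lay 0.548 or more under the next, at 5.38. The first supplied a single high array in CD4+--W35, and its CD3E of 9.88 was above the median of 9.45 over animals. The second supplied 3 arrays, and it was also the animal lowest in CD3E of all 29, at 7.21. The animals next lowest in RASGRP1, at 5.38 and 5.53, had CD3E values of 9.69 and 9.89, also above that median. CD3D, with a median of 9.02 over animals, differed from CD3E in this. The animals at 4.44 and 5.53 lay under the CD3D median, at 8.66 and 8.46, and the one at 5.38 above it, at 9.55. The animal highest in RASGRP1, at 7.04, stood 0.455 over the next and supplied 2 high and 2 low arrays. It was also the one highest in CD3E, at 10.42, while its DGKA of 7.58 lay near the median. Blood is a mixture, so fewer cells of a type and less RNA per cell cannot be told apart.

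**Figure D3:**
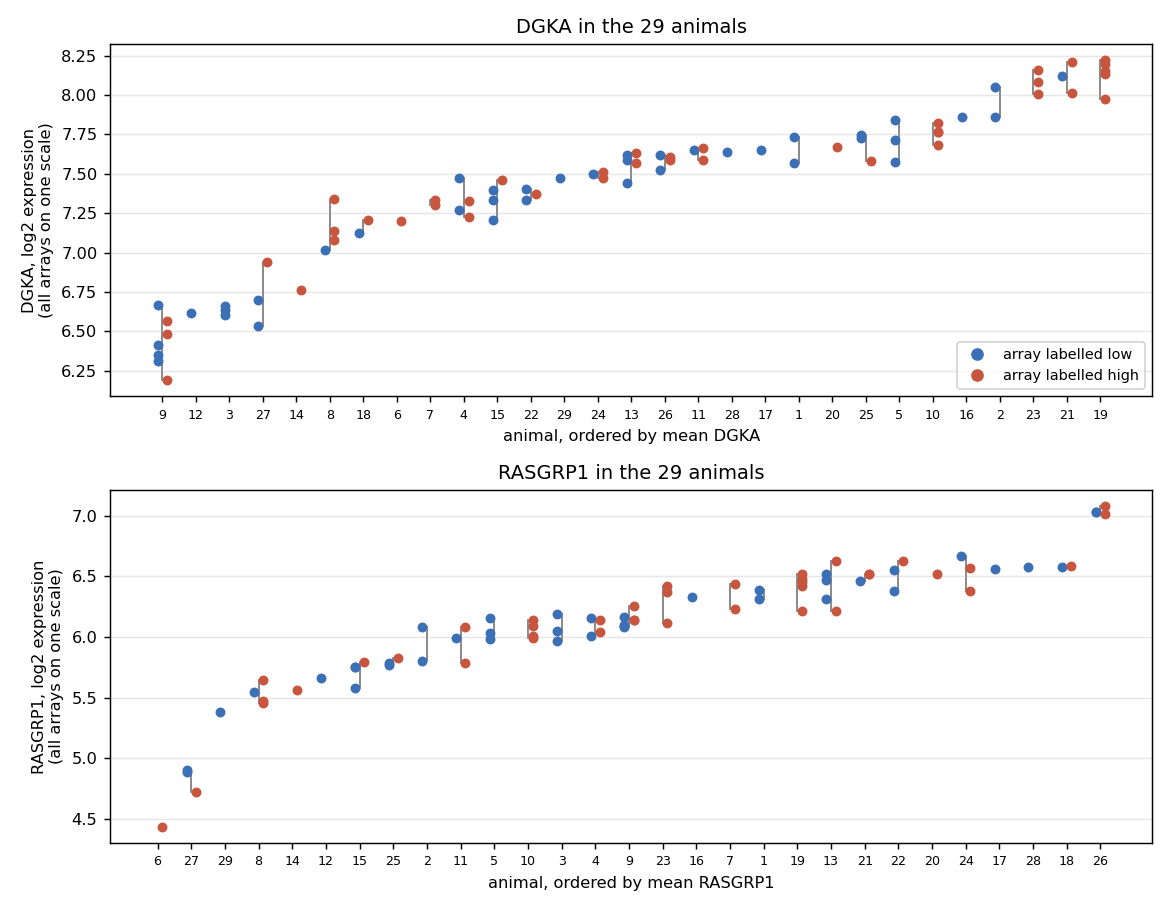
Log2 expression of DGKA (top) and RASGRP1 (bottom) in the 29 animals, ordered by their mean, with all arrays on one scale. Each point is an array, coloured by its label in the pair it served in, and vertical lines join arrays of 1 animal. Arrays of 1 animal are normalizations of the same hybridisation, so their closeness does not measure repeatability. Several animals carry both labels.

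Over the 29 animals the remover and the sensor of diacylglycerol tended to be high together, but the relation did not pass the adjusted threshold. Pearson's r between DGKA and RASGRP1 was 0.427 (permutation p = 0.0195, adjusted 0.0927 over 19 relations) and Spearman's rho 0.327 (permutation p = 0.0834, adjusted 0.226). Without the 2 animals farthest from the median of DGKA, r was 0.469 (permutation p = 0.0133, n = 27), and without the 2 farthest in RASGRP1 it was 0.360 (permutation p = 0.0655, n = 27). Within the higher hybridisation control class r was 0.404 (n = 18, permutation p = 0.0970) and within the lower class 0.429 (n = 11, permutation p = 0.185). Within single trait pairs it ranged from 0.168 in CD8+--W35 to 0.576 in CD8+--IL-10 (n = 10 in each). The partial r given the mean of CD3D, CD3E and CD3G was 0.168 (permutation p = 0.383). Of the 4938 genes whose mean reached the median of all probe sets, 7.74% had a higher r with DGKA than RASGRP1 did. For RASGRP1, 19.9% of these genes had a higher r than DGKA did.

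**Figure D4:**
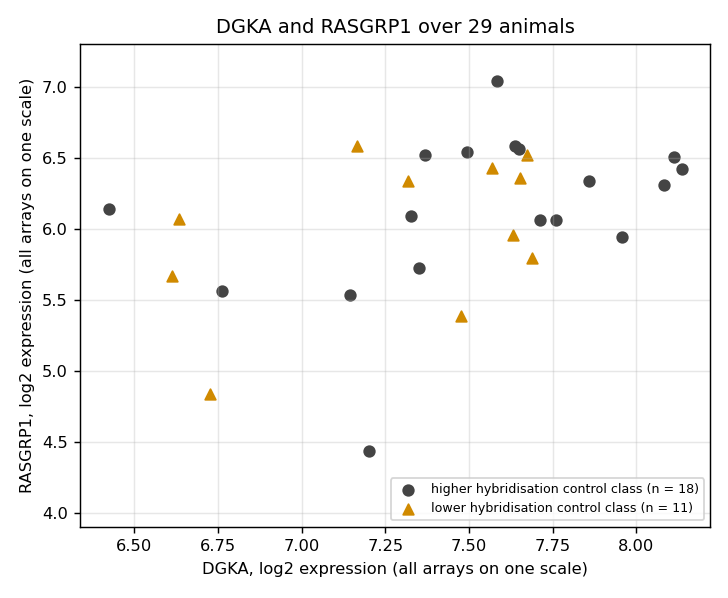
RASGRP1 against DGKA, log2 expression with all arrays on one scale, 1 point per animal (n = 29). Circles are the 18 animals of the higher and triangles the 11 of the lower hybridisation control class. Pearson's r over all animals is 0.427, and the 2 lowest RASGRP1 animals lie apart from the rest.

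T cell genes did not follow the members as one group. RASGRP1 followed CD3G with an r of 0.786 over the 29 animals, the 46th highest of the 4938 genes, and followed CD3D with 0.594 and CD3E with 0.360. DGKA followed CD3D with 0.534, CD3E with 0.455 and CD3G with 0.297. LCK, the kinase that first phosphorylates the engaged receptor, had an r of 0.435 with DGKA and 0.474 with RASGRP1. FYN, listed with LCK, had 0.682 with DGKA, the 10th highest, and 0.622 with RASGRP1. MYC, listed among early activation genes, had 0.838 with RASGRP1, the 11th highest, and 0.313 with DGKA. CD2 and IL7R of the T cell list had 0.253 and 0.120 with DGKA, and 0.291 and -0.227 with RASGRP1. LEF1, which marks naive T cells, had 0.257 with DGKA and 0.059 with RASGRP1. Some of these values differed between the hybridisation control classes. In the higher and the lower class, r with RASGRP1 was 0.237 and 0.777 for LCK and 0.169 and 0.591 for CD3E. For CD3G it was 0.806 and 0.844. The r of LEF1 with DGKA was 0.566 and 0.109 in these classes. Its r with RASGRP1 was -0.31 without the 2 animals farthest in RASGRP1. All these values come from the same arrays and share their quality and cell mixture, so they are given as a description.

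Means over marker lists were then set against each member. The T cell list (CD2, CD3D, CD3E, CD3G and IL7R) had an r of 0.402 with DGKA (permutation p = 0.0299, adjusted 0.0948; rho 0.205, permutation p = 0.284, adjusted 0.539). Its r with RASGRP1 was 0.380 (permutation p = 0.0442, adjusted 0.120; rho 0.286, permutation p = 0.134, adjusted 0.317). By Pearson's r over all 29 animals, the list tied most closely to DGKA was that of erythroid cells, with r = 0.494 (permutation p = 0.00648, adjusted 0.0868) and rho 0.447 (permutation p = 0.0157, adjusted 0.0715). Within the hybridisation control classes this r was 0.660 (higher) and 0.415 (lower). The neutrophil list ran the other way, with r = -0.458 (permutation p = 0.0122, adjusted 0.0868) and rho -0.435 (permutation p = 0.0188, adjusted 0.0715). The platelet list gave r = 0.413 (permutation p = 0.0271, adjusted 0.0948) and rho 0.531 (permutation p = 0.00345, adjusted 0.0656). Its genes did not follow DGKA alike: r was 0.604 for ITGB3 and 0.591 for ITGA2B, but 0.097 for PPBP, 0.025 for GP9 and 0.099 for RGS18. In the erythroid list r was 0.561 for AHSP, 0.509 for ALAS2, 0.408 for FECH and 0.358 for HBB, but -0.044 for KLF1. Without the 2 animals farthest in DGKA, its r was 0.526 with the T cell, 0.471 with the erythroid, -0.327 with the neutrophil and 0.460 with the platelet list (n = 27). In the higher and the lower hybridisation control class it was 0.515 and 0.268 with the T cell, -0.370 and -0.570 with the neutrophil, and 0.585 and 0.088 with the platelet list. For RASGRP1 and the T cell list, r was 0.327 without its 2 farthest animals and 0.305 and 0.500 within the classes. Without those animals the T cell list by r, and by rho the platelet list (also over all animals), stood closer to DGKA than the erythroid list did. The permutation p without them was 0.0958 for DGKA with neutrophils and 0.0967 for RASGRP1 with T cells. The NK and cytotoxic list had an r of 0.363 with RASGRP1 (permutation p = 0.0532, adjusted 0.126; rho 0.456, permutation p = 0.0137, adjusted 0.0715), and 0.537 without its 2 farthest animals. None of the 19 relations passed 0.05 after adjustment, by r or by rho.

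RNA quality was set beside these values. The difference between the 3′ and 5′ actin probe sets, which grows as RNA is degraded, had an r of -0.454 with DGKA (permutation p = 0.0137, adjusted 0.0868) and -0.306 with RASGRP1 (permutation p = 0.107, adjusted 0.225). Its group means lay farthest apart in CD8+--IL-10 (1.37 low, 0.87 high), CD4+--W35 (0.69 low, 1.08 high) and CD8+--W35 (0.90 low, 1.17 high), and in each the group with the higher value was the one lower in DGKA. As a covariate it took the DGKA difference from 0.28 to 0.08 in CD8+--IL-10, from -0.32 to -0.02 in CD4+--W35 and from -0.26 to 0.03 in CD8+--W35. In CD4+--IFN-alpha it averaged 1.16 in the low and 1.01 in the high group, with a DGKA difference of 0.77 (limma, SE 0.33) beside the covariate, and in CD8+--IFN-alpha 1.05 and 0.81. In IFN-alpha--W35 (0.86 low, 0.92 high) and CD4+--IL-10 (1.20 low, 1.41 high) the group with the higher value was instead the one higher in DGKA. There the covariate took the DGKA difference from 0.36 to 0.42 and from 0.15 to 0.27. The r of the actin difference with DGKA was -0.464 without the 2 animals farthest in DGKA, -0.482 in the higher and -0.238 in the lower hybridisation control class. The part of RNA quality in the members' differences was not tested beyond these covariate fits.

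**Figure D5:**
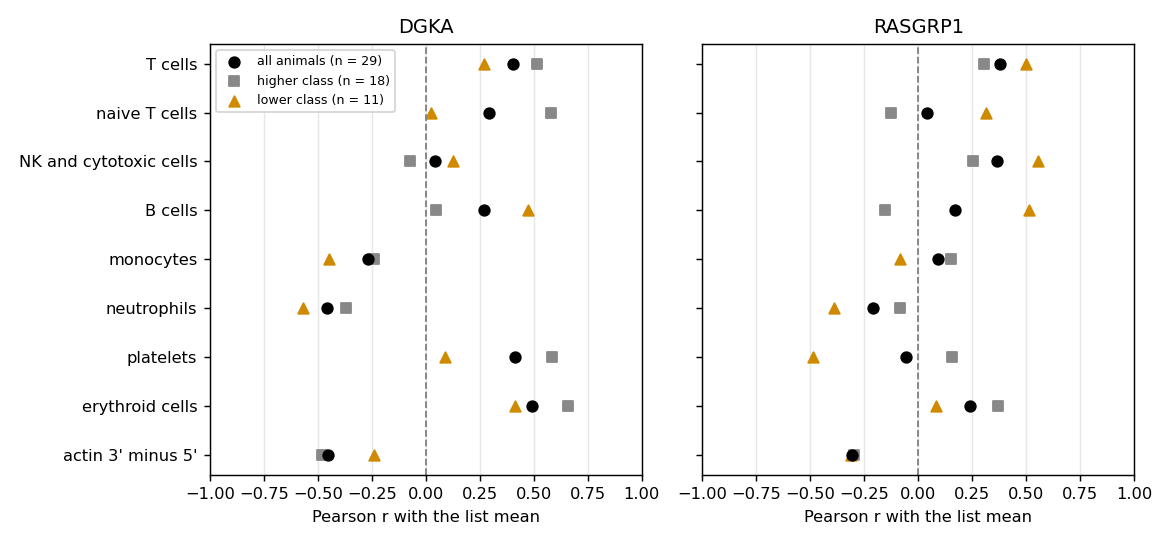
Pearson's r over animals between DGKA (left) or RASGRP1 (right) and the mean of each cell type list or the actin 3′ minus 5′ difference. Circles are all 29 animals, squares the 18 of the higher and triangles the 11 of the lower hybridisation control class. Erythroid (0.494) and neutrophil (-0.458) genes lie farthest from 0 for DGKA, and no value passed after adjustment.

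Cell type lists are given beside the members for the 2 pairs with the largest differences, with no gene of them called. In CD4+--IFN-alpha all 5 T cell genes were higher in the high group without any being called, and the list mean was 9.10 ± 0.96 (SD, n = 5) in the low and 9.49 ± 0.26 in the high group. Low arrays ranged from 7.58 to 10.08 and high arrays from 9.18 to 9.80. The differences were 0.48 for CD3E, 0.25 for CD3D and 0.86 for LEF1. Platelet genes averaged 9.63 and 10.35, naive T cell genes 7.19 and 7.73, and erythroid genes 7.82 and 8.20, in that order. In CD8+--IFN-alpha the 5 T cell genes were again all higher, with list means of 9.15 ± 0.34 (SD, n = 5, range 8.84 to 9.64) and 9.62 ± 0.38 (range 9.07 to 10.04). The differences were 0.62 for CD3E, 0.41 for CD3D and 0.33 for LEF1, and the NK and cytotoxic list averaged 9.76 and 10.36. All 5 neutrophil and all 5 monocyte genes were lower there, with list means of 8.90 and 8.35, and of 8.28 and 7.88. The part of these cells in the members' differences was not tested beyond the CD3, erythroid and neutrophil covariates.

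The other pairs had their own T cell values. In CD8+--W35 all 5 T cell genes were lower in the high group, as DGKA was, with list means of 9.23 and 8.89 and a LEF1 difference of -1.30. In CD4+--W35 the list means were 9.18 and 9.15, with CD3D lower by 0.43 (limma, SE 0.23) and CD3G by 0.39 (limma, SE 0.26) in the high group. Other lists lay farther apart there, erythroid genes at 8.55 and 7.60, platelet genes at 9.86 and 9.35, and monocyte genes at 8.40 and 7.73. The NK and cytotoxic list averaged 9.06 in the low and 9.94 in the high group without overlap, with 5 of its 6 genes at an unadjusted limma p under 0.05 and none called. Of all probe sets in CD4+--W35, 8.93% reached such a p and 1.64% had groups without overlap. In CD8+--W35, which shares 5 animals with that pair under the same labels, the list averaged 9.08 and 9.74. There 3 of its 6 genes reached such a p, against 3.43% of all probe sets. In IFN-alpha--W35 DGKA was higher by 0.36 while 4 of 5 T cell genes were lower, with list means of 9.54 and 9.38. The platelet list averaged 9.67 in the low and 10.34 in the high group there. In IL-10--W35, CD4+--IL-10 and CD8+--IL-10 the T cell list means were 9.46 and 9.58, 9.35 and 9.43, and 9.31 and 9.55, low before high.

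Other genes of the pathway were described from lists of 51 genes besides the members. None was called by limma in any of the 8 pairs, with a smallest adjusted p of 0.552 in CD4+--W35. At an unadjusted limma p under 0.05 the count of the 51 was 2 in CD4+--W35, CD8+--W35, IFN-alpha--W35 and CD8+--IFN-alpha, 1 in IL-10--W35, CD4+--IFN-alpha and CD8+--IL-10, and 5 in CD4+--IL-10. As a share of the list these were 3.92%, 1.96% and 9.80%. Over all probe sets the shares were 8.93% in CD4+--W35, 3.43% in CD8+--W35, 4.24% in IFN-alpha--W35, 3.19% in IL-10--W35, 6.18% in CD4+--IL-10 and 2.53% in CD8+--IL-10, with those of the 2 other pairs given above.

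Upstream of diacylglycerol, 11 of 19 listed receptor chains and proximal signalling genes were on the array. All 11 were higher in the high group of CD8+--IFN-alpha, with a median difference of 0.41, and in that of CD8+--IL-10, with a median of 0.18. Over all probe sets, 49.3% and 46.1% were higher in these pairs. In CD4+--IFN-alpha 9 of the 11 were higher (median 0.42, against 47.3% of all probe sets), and in CD4+--W35 8 of the 11 were lower. In IL-10--W35, where RASGRP1 was lower, 9 of the 11 were higher (median 0.14, against 49.3% of all probe sets). In CD8+--W35, where RASGRP1 was higher, 7 of the 11 were lower, with 50.4% of all probe sets higher. In IFN-alpha--W35 and in CD4+--IL-10 6 of the 11 were higher, against 47.6% and 57.8% of all probe sets. Those with an unadjusted limma p under 0.05 were CD3E in CD8+--IFN-alpha (0.62, SE 0.26), LAT, the membrane scaffold that recruits PLCG1, in IFN-alpha--W35 (0.74, SE 0.30), and PTPN6, a phosphatase that restrains receptor signalling, in CD8+--IL-10 (1.32, SE 0.51). PLCG1 itself differed by 0.48 (SE 0.53) in CD4+--IFN-alpha and by 0.66 (SE 0.42) in CD8+--IFN-alpha, the pairs in which the members differed most.

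Of the other diacylglycerol kinases, DGKZ, which shares the braking role in T cells, and DGKE, which prefers diacylglycerol carrying arachidonic acid, were on the array. DGKZ ranged from 8.89 to 10.13 over animals and had an r of 0.00 with DGKA and of -0.10 with RASGRP1. Its largest difference was 0.37 (SE 0.19) in CD8+--IFN-alpha, and in CD4+--IFN-alpha, where DGKA differed by 0.75, it was 0.11 (SE 0.23). DGKE differed by 0.57 (SE 0.38) in CD4+--IFN-alpha and by 0.46 (SE 0.26) in IFN-alpha--W35, and had an r of 0.348 with DGKA. It ranged from 3.45 to 6.03 over animals with a median of 4.85, where whole arrays as deposited had medians between 5.18 and 5.81. Whether its values exceed background was not tested. RASGRP1 was the only RasGRP factor analysed here.

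Other proteins listed as diacylglycerol sensors include the protein kinase C enzymes, whose genes differed in their likeness to the members. PRKCD, the delta isoform, differed by 0.63 (SE 0.19) in CD4+--IFN-alpha beside DGKA, with an r of 0.419 with DGKA over animals. Its differences were also of the DGKA sign in CD8+--IL-10 (0.67, SE 0.31), IL-10--W35 (0.61, SE 0.34), IFN-alpha--W35 (0.25, SE 0.21) and CD4+--W35 (-0.58, SE 0.35). None of these had an unadjusted limma p under 0.05. In CD4+--IL-10 PRKCD was lower in the high group, while DGKA was higher. PRKCH, the eta isoform, which T cells express, differed by 0.78 (SE 0.25) in CD8+--IFN-alpha beside RASGRP1, with an r of 0.660 with RASGRP1. It also had the RASGRP1 sign in IL-10--W35 (-0.27, SE 0.25), CD4+--IFN-alpha (0.17, SE 0.40) and CD4+--IL-10 (-0.13, SE 0.40). In CD8+--IL-10 PRKCH differed by -0.29 (SE 0.42), where RASGRP1 differed by 0.29. PRKCB, the beta isoform, prominent in B cells, differed by -0.76 (SE 0.33) in CD8+--W35. Over animals PRKCB had an r of 0.037 with DGKA and -0.241 with RASGRP1, and PRKCA, the alpha isoform, 0.062 and -0.304. PRKCA and PRKD2 had no unadjusted p under 0.05, with differences between -0.12 and 0.28 for PRKCA and between 0.05 and 0.28 for PRKD2. UNC13D, a factor of cytotoxic granule release that was listed although its protein lacks the lipid-binding domain of its relatives, differed by 0.46 (SE 0.20) in CD4+--IL-10. PRKCD, PRKCH, PRKCB and UNC13D reached an unadjusted limma p under 0.05 in CD4+--IFN-alpha, CD8+--IFN-alpha, CD8+--W35 and CD4+--IL-10 respectively, and none passed after adjustment.

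Downstream genes seldom reached an unadjusted limma p under 0.05. In the Ras to ERK list, 6 of 25 were on the array, and those with an unadjusted p under 0.05 were both in CD4+--IL-10. These were ARAF, a kinase activated by Ras (0.49, SE 0.15), and MAP2K2, the next kinase of the cascade (0.49, SE 0.20), in a pair in which RASGRP1 differed by -0.16. DUSP6, a phosphatase induced by ERK, differed by -0.62 (SE 0.42) in CD4+--IFN-alpha and by 0.60 (SE 0.34) in CD8+--IFN-alpha. None of the 4 NF-kappaB genes reached an unadjusted p under 0.05 in any pair. Of 8 genes of the calcium and NFAT arm, PPP3CB, a catalytic subunit of calcineurin, did so in CD4+--W35 (-0.71, SE 0.32).

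Early activation genes, which an engaged receptor induces, differed in sign from pair to pair. CD69, a surface marker of recent activation, differed by 0.82 (SE 0.27) in IFN-alpha--W35, by 1.16 (SE 0.57) in CD4+--IFN-alpha and by 0.76 (SE 0.49) in CD8+--IFN-alpha, but by -0.64 (SE 0.36) in CD8+--W35 and -0.43 (SE 0.40) in CD4+--W35. NR4A2, a nuclear receptor induced by activation, differed by 0.68 (SE 0.29) in CD4+--W35 and 0.73 (SE 0.23) in CD8+--W35, where DGKA was lower in the high group, and by -0.91 (SE 0.32) in IL-10--W35. FOS differed by -1.26 (SE 0.44) and IL2RA, the IL-2 receptor alpha chain, by 0.42 (SE 0.17) in CD4+--IL-10. Of these, CD69 in the pairs with CD4+ or CD8+ did not reach an unadjusted limma p under 0.05. Pairs with shared animals repeat values here too.

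The genes most like DGKA over the 29 animals, by Pearson's r among 4938 genes, were FCHO1, an endocytosis factor (0.782), NCK2, an adaptor of receptor signalling (0.729), PIP4K2A, a phosphoinositide kinase (0.725), LHFPL2 (0.716), EI24 (0.705), CDC42BPA, a kinase bound by CDC42 (0.692), SMOX, spermine oxidase (0.688), and MARCH2, a ubiquitin ligase (0.687). The most opposed were TMEM208 (-0.742), CSTB, an inhibitor of cathepsins (-0.708), TBK1, a kinase of innate signalling (-0.708), and SAR1B, a GTPase of secretory transport (-0.698). Without the 2 animals farthest in DGKA, FCHO1 had 0.722 and TMEM208 -0.603. For orientation, the 5th and 95th percentiles of r with DGKA were -0.434 and 0.472.

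For RASGRP1 they were DERA, an enzyme of deoxyribose breakdown (0.874), NSMCE4A, a subunit of a DNA repair complex (0.862), PTPRA, a receptor phosphatase (0.858), SERPINI1 (0.854), SEMA4D, a semaphorin of T cells (0.854), ADK, adenosine kinase (0.852), PDHB, a pyruvate dehydrogenase subunit (0.852), and UBR7 (0.851). The most opposed were LOC100624648 (-0.820), SLC31A2, a copper transporter (-0.820), ZRANB1, a deubiquitinase (-0.778), and PHKA2, a phosphorylase kinase subunit (-0.776). The 5th and 95th percentiles of r with RASGRP1 were wider, at -0.537 and 0.664. Without the 2 animals farthest in RASGRP1, DERA had 0.732 and UBR7 0.651. The main axis of variation over animals, a component holding 20.4% of the variance of 6765 genes, had an absolute r of 0.499 with DGKA, 0.654 with RASGRP1 and 0.649 with the CD3 mean.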

How the data were processed

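The authors deposited log2 expression per probe set for 80 arrays, made with RMA and analysed with limma per the submitters' processing notes, which give no versions. Array means were almost equal within a trait pair and differed between pairs. From this each pair was taken to have been normalized apart, which the notes do not state. Of 24123 probe sets, 124 controls were left out and 23999 tested, of which 10069 carry 1 gene symbol, 198 several and 13732 none. For a gene, the probe set with the highest mean was used.

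Each pair was fitted on its own 10 arrays with limma 3.58.1 in R 4.3.3 (group term, eBayes defaults, two-sided tests, Benjamini-Hochberg over all tested probe sets), after the script had been tested on simulated data. Single differences were also tested with an exact permutation test over the 252 splits of 10 arrays, added after seeing the data. Over animals, all arrays were quantile normalized together, an animal's columns averaged, and correlations tested with 100000 permutations in Python 3.11.15 with scipy 1.17.1. Named genes followed a fixed rule: the members, the 8 most and 4 least alike genes, up to 3 genes per list and pair with the smallest unadjusted p, every diacylglycerol kinase, RasGRP and protein kinase C, and CD3E, CD3D and LEF1. The text shows a part of them, and CD3G, CD2, IL7R and single blood markers were added after their values were seen. The members and lists were chosen with earlier results of these data known. Arrays give no count, so their number limits the precision. Groups of one pair hold separate pigs, and p-values measure the spread between them. Replicate numbers were checked for pairing: correlations of same-numbered deviations ran from -0.544 to 0.365. No pair of groups had all 5 over 0.1, but CD4+--W35 had 4 and CD8+--IL-10 had 3. Arrays were treated as unpaired, and the check cannot exclude pairing. Alternatives covered scaling, filtering, array weights, blocks, covariates and leaving out each array.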

Additional observations from a re-analysis of the deposited data

Results flagged for a closer look

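One value was set apart by Dixon's test among the 32 groups of 5 arrays examined for the 2 genes. DGKA in the low group of CD4+--IL-10 was 6.76 in replicate 2, while the other 4 arrays lay between 7.62 and 7.90. The gap was 0.756 of the group's range, above the critical value of 0.71 for 5 samples. Chance sets apart about 1 in 20 groups, and 1 of 32 was found. The animal was low in DGKA in each of its 3 arrays, with a mean of 6.63.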

How the results depend on the processing

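Each of the 16 differences was refitted under 11 other settings and with each of its 10 arrays left out. None of the 336 fits brought a member under the adjusted threshold. The sign turned in 12 fits of the first kind and 6 of the second, and the cause was not tested. With erythroid and neutrophil covariates, DGKA was 0.0631 in CD4+--W35 and 0.0628 in CD8+--W35, and RASGRP1 0.0583 in CD4+--IL-10. With the actin covariate, DGKA was 0.0250 in CD8+--W35 and RASGRP1 -0.0166 in CD8+--IL-10. With the CD3 covariate, RASGRP1 was 0.0620 in IFN-alpha--W35 and -0.00876 in CD4+--IFN-alpha. Array weights gave RASGRP1 -0.0279 in CD4+--IFN-alpha and 0.177 in CD4+--IL-10. The higher hybridisation control class alone gave RASGRP1 -0.13 in CD8+--W35 and -0.17 in CD4+--IFN-alpha, and that class as a block gave DGKA -0.10 in CD4+--IL-10. Leaving out 1 array gave ranges across 0 for RASGRP1 of -0.19 to 0.00040 in IFN-alpha--W35, -0.31 to 0.0340 in IL-10--W35, -0.0370 to 0.47 in CD4+--IFN-alpha and -0.42 to 0.12 in CD4+--IL-10, and for DGKA of -0.0432 to 0.38 in CD4+--IL-10. DGKA in CD4+--IFN-alpha stayed between 0.54 and 0.92. RASGRP1 in CD8+--IFN-alpha stayed between 0.48 and 0.76. At an unadjusted p under 0.05 in place of the adjusted threshold, the pathway counts went from 0 to 5 in CD4+--IL-10, to 2 in CD4+--W35, CD8+--W35, IFN-alpha--W35 and CD8+--IFN-alpha, and to 1 in IL-10--W35, CD4+--IFN-alpha and CD8+--IL-10. The r of DGKA with RASGRP1 lost an unadjusted p under 0.05 without the 2 animals farthest in RASGRP1 (0.360, chosen after seeing the data), in the higher and the lower class (0.404 and 0.429), given CD3 (0.168), and within pairs (0.243 in CD4+--W35, 0.168 in CD8+--W35, 0.175 in IFN-alpha--W35, 0.274 in IL-10--W35, 0.503 in CD4+--IFN-alpha, 0.562 in CD4+--IL-10, 0.232 in CD8+--IFN-alpha and 0.576 in CD8+--IL-10). The replicate block left the DGKA difference in CD4+--IFN-alpha at 0.75 (limma adjusted p = 0.9998) and the RASGRP1 difference in CD8+--IFN-alpha at 0.62 (limma adjusted p = 0.9999), and gave no call. Other probe sets of a gene, or their mean, could give no value because each gene had 1.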
